A study of Mus musculus with 10 samples.

Results

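Mouse embryonic stem cells (ESC) were compared with hepatocyte-like cells (HLC) derived from them, across all genes that the arrays could name. The comparison holds 7 of the 10 arrays of the study: 3 of HLC and 4 of ESC. The other 3 arrays are of adult hepatocytes (AdHep, source given as liver) and are used here to place levels. They also enter the fit, which estimates the spread of each gene over all 10 arrays. By the labels all 10 samples share the mouse background C.FVB with the transgene Tg(CAG-luc, GFP)L2G85Chco, whose laboratory code is FathJ and which places luciferase and GFP under the ubiquitous CAG promoter. All are given a passage under 20. The study concerned the recognition of cells of the liver lineage through NKG2D, a receptor by which natural killer cells are activated. Total RNA was biotin-labelled and hybridised to arrays that read 41345 transcript clusters, each a group of probes for a gene or transcript. Exactly 1 gene symbol was attached to 23521 of the clusters, and with 1 cluster kept per gene these gave the 22180 genes described below. The sources used here do not give the steps, days and factors that turned ESC into HLC, nor whether replicates were separate differentiations.

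An embryonic stem cell is held in a self-renewing state by a small set of transcription factors, divides rapidly with a short first gap phase, and keeps silent most genes of differentiated tissues. On the way to a hepatocyte, a cell passes through endoderm and then the hepatoblast, the bipotent progenitor of hepatocytes and bile duct cells, which makes alpha-fetoprotein before it makes albumin. In culture such cells also spread on a stiff surface and can take on traits of mesenchyme, the matrix-producing and contractile tissue that surrounds the liver epithelium.

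Values are log2 levels, so that a difference of 1 is a doubling. A gene is said to have risen or fallen when its HLC and ESC means differed by at least 1 on that scale with an adjusted p under 0.05 in limma (a linear model over all genes, Benjamini-Hochberg adjustment over the 22180 genes). Differences are HLC minus ESC, between the means of 3 HLC and 4 ESC arrays, and their standard error (SE) rests on the spread pooled over all 10 arrays, adult hepatocytes included. The arrays give no zero, and a log2 level of 5.5, close to the median level of each array (5.43 to 5.61), was taken as a floor under which a gene may be no more than background. Differences that start below that floor can be understated. Because these are bulk samples, a change in the share of cells of a type and a change in RNA per cell cannot be told apart.

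The ESC arrays did not scatter evenly. In 1618 genes the arrays of ESC 1 and 3 lay at least 0.5 above or below those of ESC 2 and 4, against 49 and 51 genes for the other 2 ways of pairing the 4 arrays. The gap reached 1 in 205 genes, of which 25 were among the genes that rose in HLC and 68 among those that fell. Nxf3 and Hormad1 were among the genes higher in ESC 1 and 3, and Aqp3 and Rhox5 among those higher in ESC 2 and 4 (genes chosen after their values were seen). What the pairs share is not given in the labels, and results that change when either pair is used alone are marked below. The HLC arrays were looser than the others: the SD over arrays was at least 1 in 407 genes for HLC, 49 for ESC and 93 for AdHep. The pooled SE can therefore be too small, and the call too lenient, for genes in which the HLC arrays disagree.

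About as many genes were called higher as lower on the deposited scale. Of 22180 genes, 3540 were called (16.0% of those tested), 1909 higher in HLC (8.61%) and 1631 lower (7.35%). At any size of difference, 28.8% of genes had an adjusted p under 0.05. All 3 HLC arrays lay above all 4 ESC arrays in 1862 of the 1909 genes that rose and below them in 1594 of the 1631 that fell. Over all genes tested such full separation was seen in 17.2% upwards and 17.5% downwards. The called genes were selected on these same arrays, so their separation largely follows from the selection and is no further support for the calls. The median difference over all genes was -0.01. That median and the balance of the counts depend on how arrays are scaled. Arrays centred on their median gave 1714 higher and 1841 lower, and cyclic loess gave 1971 and 1526. Most calls were moderate: 599 genes rose and 431 fell by at least 2, 71 rose and 56 fell by at least 4, and 8 rose and 10 fell by at least 6.

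The share of genes that rose or fell differed with their level in ESC. Among the 11199 genes under the floor in ESC, 6.72% rose and 0.688% fell. Among the 4810 genes with an ESC level from 7 to 9, 9.11% rose and 15.9% fell, and among the 1641 genes from 9 to 11 the shares were 3.41% and 26.4%. Probes differ in brightness, so these bands describe the probe sets and do not rank the genes by abundance. The bands also use the ESC mean that enters the difference, and a gene under the floor has little room to fall. Part of this pattern therefore follows from the split itself. The plot of mean levels shows both arms leaving the diagonal, with the rises spread over low ESC levels and the falls over high ones.

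**Figure D1:**
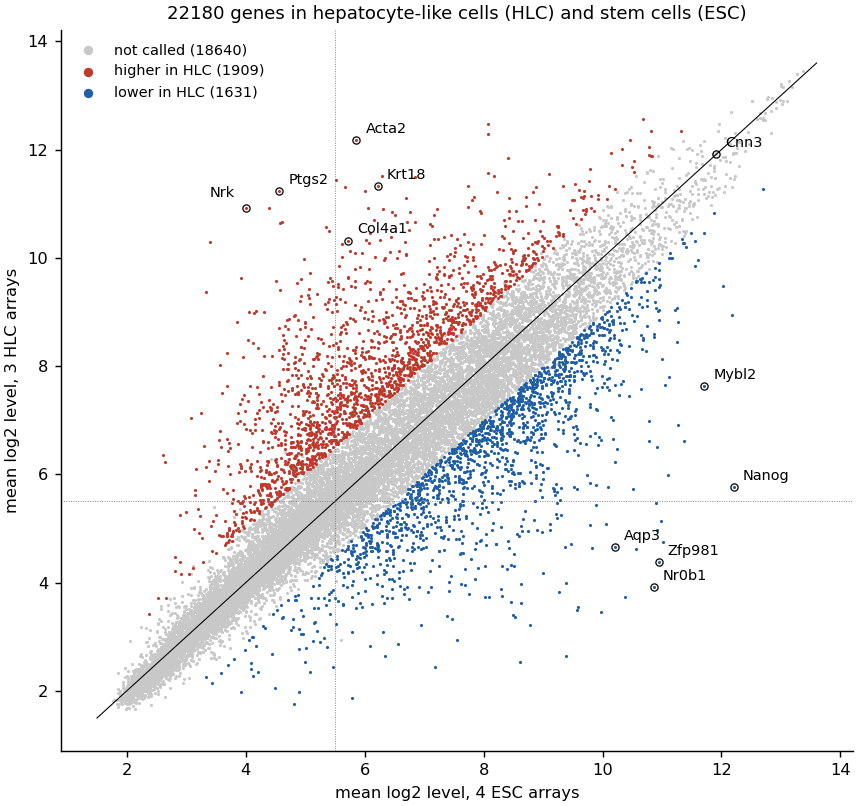
Mean log2 level of each of 22180 genes in the 4 ESC arrays (x axis) and the 3 HLC arrays (y axis), 1 point per gene, with the 1909 genes that rose in red and the 1631 that fell in blue. The dotted lines mark the floor of 5.5 and the diagonal marks equal levels. Nrk and Ptgs2 rise from below the floor, Nr0b1 and Zfp981 fall to below it, and Cnn3 lies on the diagonal.

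A stricter class was set apart: genes under 5.5 in ESC and at 7 or more in HLC ("switched on"), and the reverse ("switched off"). There were 247 switched-on genes (1.11% of genes tested) and 153 switched-off genes (0.690%). The switched-on genes went from a median level of 4.97 in ESC to 7.79 in HLC, and the switched-off genes from 7.89 to 4.87. Adult hepatocytes had a level of at least 7 in 68 (27.5%) of the switched-on genes and a level under 5.5 in 113 (45.7%). Over all genes tested those shares were 27.5% and 50.1%, and over the 1909 genes that rose they were 42.2% and 29.9%. The switched-on genes were chosen for a low ESC level, so these sets are not alike in level. Of the switched-off genes, 119 (77.8%) were under 5.5 in adult hepatocytes too.

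Some switched-on genes were also at 7 or more in adult hepatocytes. Serpina3n, which encodes an acute-phase serine protease inhibitor, went from a mean of 4.57 in ESC to 9.40 in HLC, with 11.8 in adult hepatocytes. Bmp1, the protease that trims procollagen, went from 5.35 to 10.6, with 9.48 in adult hepatocytes. The transcription factor gene Gata6 stood at 5.41, 9.63 and 7.35 in the same order, and Nrp1, a co-receptor for semaphorins and VEGF, at 4.17, 9.02 and 9.35.

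The largest rises were led by a kinase gene and by genes of matrix and inflammation. Nrk, which encodes a kinase of the germinal-centre family known from placenta and embryonic muscle, had levels of 10.73, 11.07 and 10.96 in HLC 1 to 3 and of 4.23, 4.22, 4.15 and 3.40 in ESC 1 to 4. The groups were far apart, and the difference was 6.92 ± 0.21 (SE), a 121-fold higher level. Postn encodes periostin, a matrix protein of activated fibroblasts, and read 11.28, 10.37 and 9.21 in HLC against 3.29 to 3.47 in ESC, a difference of 6.88 ± 0.38 (adjusted p = 8.08e-08). Its HLC arrays stepped widely apart but all lay far above ESC. Ptgs2, the inducible cyclooxygenase that makes prostaglandin precursors, read 10.54, 11.25 and 11.91 against 4.32 to 4.80, a difference of 6.67 ± 0.26 (adjusted p = 5.95e-09). Thbs1 (thrombospondin, a matrix protein that activates latent TGF-beta) differed by 6.54 ± 0.31, and Acta2 (smooth muscle actin) by 6.32 ± 0.24. Tnc (tenascin C) had the loosest HLC values of this group at 11.44, 11.92 and 8.58, still above its ESC range of 4.39 to 4.78. The other 9 of the 15 largest rises were S100a6, Ctla2a, Pmp22, Aff2, Igfbp7, Anxa2, Col1a1, Bmp1 and Krt18, between 6.05 and 5.10.

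The largest falls were led by stem cell regulators and by genes whose relatives share sequence. Nr0b1 encodes an orphan nuclear receptor that binds the pluripotency factors, and read 4.01, 4.01 and 3.72 in HLC against 10.83, 10.82, 10.99 and 10.83 in ESC. It fell by 6.95 ± 0.18, a 124-fold lower level (adjusted p = 5.42e-10). Fbxo15, an F-box gene long used as a stem cell reporter, fell by 6.64 ± 0.19, and Nanog by 6.44 ± 0.40. Nanog was unevenly lost, at 5.08 and 5.09 in HLC 1 and 2 and 7.12 in HLC 3, and Tdgf1 (a co-receptor of Nodal) did the same at 3.90, 3.83 and 6.50. Zfp981 and Zfp640, zinc finger genes with near copies, fell by 6.56 ± 0.44 and 6.53 ± 0.45. Clones, predicted models and pseudogenes, among them Zscan4e (below), are left out of the rankings of rises and falls. So are genes whose HLC and ESC arrays overlap. Other falls in the top 15 were Calcoco2, Pla2g1b, Zfp42, Dppa2, Aqp3, Lrrc34, Sox2, Morc1 and Mylpf. Aqp3, a water and glycerol channel, had the widest gap between the ESC pairs among these 15, with 8.41 and 9.31 in ESC 1 and 3 and 11.63 and 11.49 in ESC 2 and 4, all above its HLC range of 4.41 to 5.0.

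**Figure D2:**
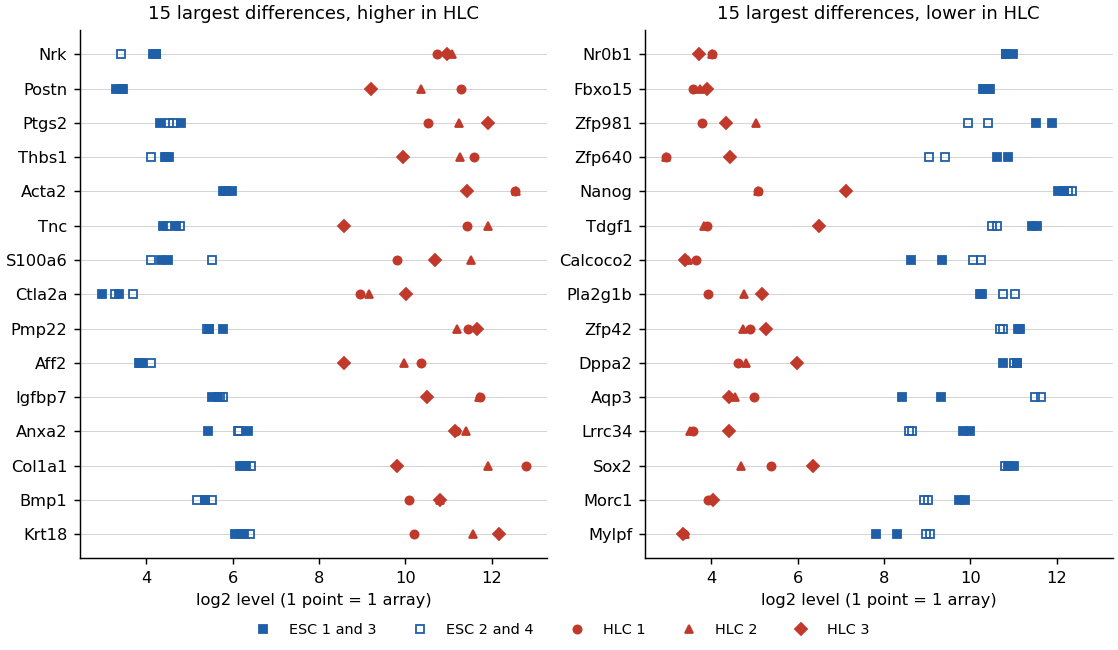
Log2 level in each array of the 15 genes with the largest rise (left) and the 15 with the largest fall (right), 1 point per array, blue squares for ESC (filled for ESC 1 and 3, open for ESC 2 and 4) and red symbols for HLC 1 to 3. The 30 genes were chosen among those in which HLC and ESC points do not overlap. ESC pairs are visible in several falls, among them Aqp3, Zfp640, Lrrc34 and Zfp981.

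At the other end, genes with a mean of at least 11 in both kinds and the smallest differences were Cnn3, Prelid1, COX3, Cox6a1 and Hnrnpab. Cnn3, a calponin, read 11.57, 12.08 and 12.10 in HLC against a mean of 11.90 in ESC, a difference of 0.01 ± 0.16. Its relative Cnn2 moved by 4.65 ± 0.18 in the same arrays.

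The label was set against defining markers. Of 12 hepatocyte markers tested, 3 rose (Fgb, Ttr and Apoa1), 0 fell and 9 were not called. Their mean level was 5.33, 5.82 and 6.66 in HLC 1 to 3 and between 4.75 and 4.99 in the ESC arrays. Ttr, the thyroxine carrier made early in liver development, went from a mean of 6.31 in ESC to 9.42 in HLC, with 13.1 in adult hepatocytes. Albumin (Alb) read 4.85 and 5.14 in HLC 1 and 2, within the ESC range of 4.62 to 5.51, and 10.80 in HLC 3. Its difference of 2.03 ± 1.05 was not called (adjusted p = 0.189). The mature enzymes Cyp3a11, Cyp7a1, G6pc and Cps1 differed from ESC by between -0.16 and 0.14, and adult hepatocytes held them at 9.1 to 12.6. By 9 of 12 markers the label hepatocyte-like was not met against ESC, and HLC is used below only as the name of the labelled group. Hepatoblast markers went further, with 4 of 6 higher (Krt18, Krt8, Afp and Dlk1). Foxa2 differed by 0.63 and Epcam by -0.89, and neither was called.

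Markers of other cell types moved as well. Of 8 pluripotency markers, 7 fell and Dppa5a was not called. Of 11 fibroblast or stellate markers, 8 rose, with mean levels of 9.49, 8.41 and 7.59 in HLC 1 to 3 and 5.08 to 5.33 in ESC. Of 10 markers of extraembryonic endoderm, the yolk sac lineage, 8 rose. Trophoblast markers, of the placental lineage, rose in 2 of 6 (Hand1 and Plac1), with mean levels of 5.48, 5.62 and 7.26 in HLC 1 to 3 and 5.10 to 5.25 in ESC, so HLC 3, the array high for Alb, was highest for them too. Bile duct markers rose in 3 of 5 (Krt19, Sox9 and Krt7), with Epcam (-0.89) and Cftr (0.27) not called. In the macrophage, muscle, neural and endothelial sets 1 of 7, 2 of 8, 1 of 6 and 2 of 7 rose and 1, 0, 1 and 2 fell. The leukocyte marker Ptprc had a mean of 3.27 in HLC and 3.28 in ESC, both under the floor. The part that mixtures of such cells play in the gene groups below was not tested.

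A set of 28 gene lists, covering structure, signalling, chromatin, division and metabolism, was counted next. Over all genes, 8.61% rose and 7.35% fell, and each list is read against those shares without a test of the list. Those shares are not matched for level. Under the floor in both kinds were 9964 of all 22180 genes, but 1 of 59 DNA replication and repair genes and 0 of 41 ribosome biogenesis genes. Of genes at an ESC level from 7 to 9, 15.9% fell, and of those from 9 to 11, 26.4%. Upward lists were dominated by matrix and cytoskeleton, downward ones by DNA replication, mitosis, ribosome biogenesis and serine, one-carbon and nucleotide synthesis. Members of 1 list often share regulators, so they are not independent. The lists and their members were chosen with earlier results of these data known, so a high share is no independent support for a theme.

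**Figure D3:**
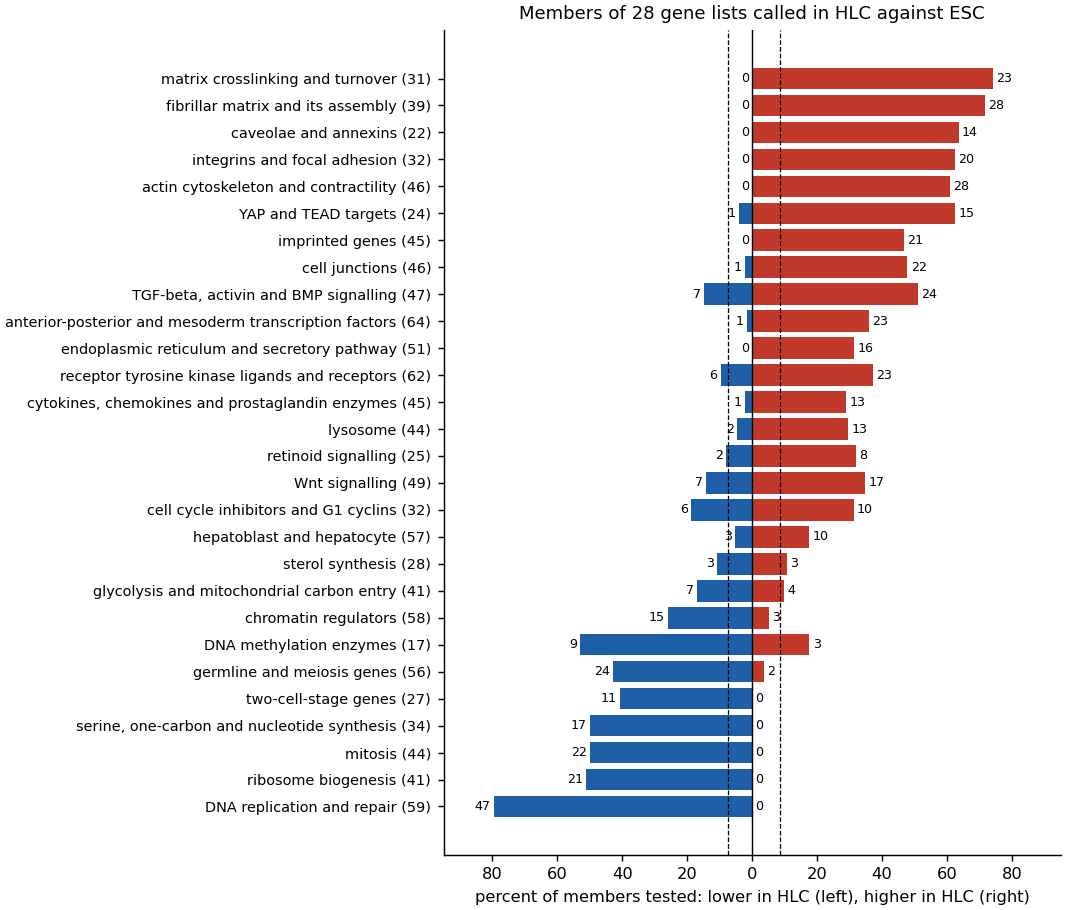
Percent of tested members of 28 gene lists that fell (blue, left) or rose (red, right) in HLC against ESC, with the number of members called beside each bar and the number tested in brackets. Dashed lines mark the shares over all genes, 7.35% lower and 8.61% higher. The lists were chosen with earlier results of these data known. Matrix and actin lists pass 60% higher with 0 lower, and DNA replication and repair has 47 of 59 lower.

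The actin and contractility list rose in 28 of 46 members, with 0 lower and a median difference of 1.62. Acta2 led it at 12.54, 12.57 and 11.44 in HLC against 5.77 to 5.99 in ESC. Cnn2, a calponin that steadies actin filaments, read 11.82, 11.48 and 11.19 against 6.62 to 7.0, a 25-fold higher level (difference 4.65 ± 0.18, adjusted p = 6.69e-09). Tagln (transgelin, an early smooth muscle marker) rose by 4.18 ± 0.32, Flnc (filamin C) by 3.84, Lpp by 3.64 and the tropomyosin Tpm1 by 3.55. The ubiquitous actins moved less: Actb differed by 0.53, Actg1 by 0.80 and the alpha-actinin Actn4 by 0.35, none of them called.

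Many contractile genes are controlled by serum response factor, which binds a sequence called the CArG box. RefSeq promoters (build GRCm38.p6, 250 bases before to 50 after each start) were searched for it on both strands by name, and 298 of 20520 promoters, 1.45%, held a match. In the actin list 9 of 54 promoters, 16.7%, held a match. They belong to 8 of the 40 list genes with a promoter, of which Cnn2, Fhl2, Myl9 and Vcl rose, 0 fell, and Actg1, Fhl1, Myl6 and Srf itself were not called. Of all 40, 25 were called, so genes with the match were not called more often than the list as a whole. Among promoters of all genes that rose the share was 1.71%, and of all that fell 0.776%. Promoters of 3 genes that rose are shown because the match can be seen in them. Each line gives the 250 bases before the start, 5′ to 3′ in the direction of the gene, with the CArG match in capitals.
Cnn2 (chr10:79988350-79988599, plus strand): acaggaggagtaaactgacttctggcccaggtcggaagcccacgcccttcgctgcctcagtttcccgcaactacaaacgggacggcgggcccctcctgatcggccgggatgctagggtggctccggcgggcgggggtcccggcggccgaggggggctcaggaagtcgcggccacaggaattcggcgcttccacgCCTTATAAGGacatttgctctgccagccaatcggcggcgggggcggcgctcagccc
Myl9 (chr2:156775214-156775463, plus strand): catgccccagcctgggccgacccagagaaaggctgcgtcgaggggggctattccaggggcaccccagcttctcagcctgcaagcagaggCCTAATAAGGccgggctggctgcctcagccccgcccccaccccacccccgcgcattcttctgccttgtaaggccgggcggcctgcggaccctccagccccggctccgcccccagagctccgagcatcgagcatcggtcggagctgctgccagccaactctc
Vcl (chr14:20929148-20929397, plus strand): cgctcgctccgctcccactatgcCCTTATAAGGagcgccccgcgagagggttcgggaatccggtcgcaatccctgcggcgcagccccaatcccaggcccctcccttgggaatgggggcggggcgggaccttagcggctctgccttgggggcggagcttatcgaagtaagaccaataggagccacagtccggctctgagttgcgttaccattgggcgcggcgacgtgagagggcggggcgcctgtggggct
Myl9, a regulatory light chain of myosin, read 10.32, 9.65 and 8.19 in HLC against 6.78 to 7.36 in ESC and rose by 2.27 ± 0.38. Vcl, which encodes the adhesion protein vinculin, read 11.59, 11.33 and 11.08 against 9.23 to 9.41 and rose by 2.0 ± 0.17. A match is a description of these letters, and binding was not measured.

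The 2 matrix lists had the largest shares of members higher among the 28. Of 39 genes of fibrillar matrix and its assembly, 28 rose and 0 fell, with a median difference of 2.33, and 14 of them were switched on. Col1a1, a chain of type I collagen, read 12.80, 11.92 and 9.80 in HLC against 6.18 to 6.44 in ESC (difference 5.21 ± 0.50, adjusted p = 6.62e-06). Igfbp7 rose by 5.64, Col12a1 by 4.93 and Ecm1 by 4.29, after Postn, Thbs1 and Tnc. Fn1 (fibronectin) differed by 0.55 from an ESC mean of 12.2 and Eln (elastin) by 0.07 from 5.2, both not called. The list's mean level stood 3.13, 2.40 and 1.78 above the ESC mean in HLC 1, 2 and 3, so the arrays agreed in direction and were ordered as the fibroblast markers were.

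Enzymes that finish and remodel matrix moved with it. Of 31 genes of crosslinking and turnover, 23 rose and 0 fell. Lox (lysyl oxidase, which crosslinks collagen) rose by 4.55, Mmp2 by 4.37, Timp3 by 4.67, Timp2 by 4.25 and the membrane protease Mmp14 by 3.76. Among the Adamts proteases as a symbol family, 11 of 23 rose, with Adamts6 (3.08), Adamts1 (3.05) and Adamts5 (2.93) leading, and 6 were called when genes dim in most arrays were left out. In basement membrane, Col4a1 read 10.63, 10.74 and 9.58 in HLC against 5.42 to 5.92 in ESC and rose by 4.60 ± 0.26 (adjusted p = 8.5e-08). Its neighbour Col4a2, which shares a promoter region with it, rose by 4.18.

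Receptors for matrix and the membrane domains around them rose together. Of 32 integrin and focal adhesion genes, 20 rose and 0 fell: Cd44, a hyaluronan receptor, by 4.83, Itga3 by 4.08, Parva by 3.96 and the common beta chain Itgb1 by 3.34. Of 22 caveola, annexin and S100 genes, 14 rose and 0 fell, with S100a6 (6.05), Anxa2 (5.23), Anxa3 (5.09), Anxa1 (4.41), Ehd2 (3.76) and Anxa5 (3.59) in front. Cav1, the coat protein of caveolae, read 7.29, 8.15 and 6.28 in HLC against 4.25 to 4.71. Targets of YAP and TEAD, the transcription factors that respond to cell tension, rose in 15 of 24 and fell in 1. Axl rose by 4.36, Crim1 by 3.53, Ccn1 by 3.50 and Ankrd1 by 2.96, while the regulators Yap1 (0.14), Wwtr1 (0.32) and Tead1 (0.74) were not called. The TEAD letters GGAATG, searched on both strands, were in 13.9% of promoters of genes that rose and in 13.5% of all promoters. In the actin list they were in 17 of 54 promoters (31.5%), and in the fibrillar matrix list in 4 of 33 (12.1%).

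Junction genes also gained. Of 46 junction genes, 22 rose and 1 fell. Krt18 and Krt8, the paired keratins of simple epithelia, rose by 5.10 and 4.09, and Krt19, the keratin of bile duct and hepatoblast, had a mean of 9.14 with its highest value in HLC 2, against 4.90 to 5.27 (difference 4.06 ± 0.27). Cldn6, a tight junction claudin of early epithelia, rose by 3.94. Of the cadherins, Cdh11 rose by 4.71 and Cdh2, which both mesenchyme and hepatocytes express, by 3.70 ± 0.23 to a mean of 10.9, with 10.5 in adult hepatocytes. The epithelial Cdh1 read 9.61, 11.35 and 10.58 in HLC against 10.58 to 10.95 in ESC, a difference of -0.26 ± 0.31 (not called, adjusted p = 0.609). Of the whole keratin family 5 of 49 rose (10.2%), near the 8.61% of all genes.

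Signalling genes changed in both directions. In the TGF-beta, activin and BMP list, 24 of 47 rose and 7 fell. Tgfb2, a ligand that drives matrix production, read 8.92, 9.97 and 9.71 in HLC against 4.75 to 4.96 (difference 4.67 ± 0.22, adjusted p = 1.92e-08). Tgfb1 rose by 3.09, the BMP target genes Id2 and Id1 by 3.90 and 3.01, and Smad3 by 2.45. The falls included genes of the Nodal pathway used in the early embryo: Gdf3 fell by 4.76, Lefty2 by 4.72 and Nodal by 2.56. Lefty2 read 4.97, 4.51 and 5.74 in HLC against 9.58 to 9.97 in ESC, with no overlap.

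In the Wnt list, 17 of 49 rose and 7 fell. The rises were inhibitors, ligands and receptors such as Dkk1 (3.04 ± 0.47), Frzb, Dkk2 (2.61) and Ror1 (2.13). The falls included direct read-outs of the canonical pathway, Axin2 (2.07 ± 0.21 lower) and Sp5 (2.32 lower), and the receptor Fzd10 (2.35 lower). Dkk1 was uneven at 9.37, 7.02 and 9.52 in HLC but above its ESC range of 5.33 to 6.02. Frzb rested on HLC 1, at 9.65, 5.39 and 4.90, and was not called with either ESC pair used alone.

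Receptor tyrosine kinase genes rose in 23 of 62 and fell in 6. Igf2, the fetal growth factor, read 10.20, 9.84 and 10.73 in HLC against 5.21 to 5.94 in ESC and rose by 4.64 ± 0.23 (24.9-fold, adjusted p = 3.21e-08). In the family of Igf and Igfbp symbols 7 of 13 were higher and 0 lower: Igf2, its antisense RNA Igf2os, the receptor Igf1r and the binding proteins Igfbp3, Igfbp4 (3.69), Igfbp5 (3.24) and Igfbp7. Probes of Igf2 and Igf2os may read each other's RNA. Egfr rose by 3.74 ± 0.29 and the ephrin ligand Efnb2 by 4.39. Fgf4, the autocrine factor of stem cells, fell by 3.96 ± 0.16, and Kit, the receptor of stem cell factor, by 3.17 ± 0.23. Of 24 dual specificity phosphatases, which include feedback inhibitors of this pathway, 6 rose and 1 (Dusp27) fell, with Dusp4 3.80 and Dusp6 3.44 higher. Semaphorins, guidance ligands of nerves and vessels, rose in 9 of 20 and fell in 2, led by Sema3e (4.37 ± 0.31) and Sema3c (3.74).

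Of 45 cytokine, chemokine and prostaglandin genes, 13 rose and 1 fell. After Ptgs2 came Csf1, the growth factor of macrophages, which read 8.05, 9.86 and 10.07 in HLC against 4.89 to 5.70. Tnfrsf12a rose by 3.39, Pla2g4a, the phospholipase that feeds Ptgs2, by 3.21, and the oncostatin receptor Osmr by 2.98. The prostaglandin E synthase Ptges differed by 0.46 and was not called, and Osm itself fell by 1.60. Retinoid genes rose in 8 of 25 and fell in 2: Rdh10, which makes retinal, rose by 3.72 and the receptor Rarb by 2.81, while the synthesising enzyme Aldh1a2 fell by 1.84 and the retinoid target Stra8 by 2.01.

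Of 64 transcription factors of mesoderm and body axis, 23 rose and 1 (Cdx1) fell. Gata6 read 10.54, 9.68 and 8.68 in HLC against 5.10 to 5.92 and rose by 4.22 ± 0.35. Snai2 (Slug, a repressor of epithelial genes) rose by 3.85 ± 0.24, Tbx20 by 3.80, Meis1 by 3.35 and Prrx1 by 2.95. In the Hox clusters, which encode position along the body, 5 of 36 rose and 1 fell, with 1 to 8 higher over the alternatives that keep the thresholds, so that family gave no settled count. Of 17 Klf factors, more fell (7) than rose (2): Klf2 fell by 3.97, Klf8 by 2.70 and Klf4 by 2.41.

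In the hepatoblast and hepatocyte list, 10 of 57 rose and 3 fell, and 30 were under the floor in both kinds. Afp read 9.13, 9.30 and 6.69 in HLC against 4.41 to 4.93 in ESC and rose by 3.75 ± 0.48. Fgb rose by 3.18 and Apob by 3.05. The 3 that fell were liver genes already expressed in the stem cells: Fetub fell by 3.49, Apoc1 by 2.90 and Apoe by 1.43. Apoc2, Apoc1, Apoe and Tomm40, neighbours on chromosome 7, fell together.

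Of the 28 lists, DNA replication and repair had the largest share of members lower. Of its 59 genes, 47 fell and 0 rose, with a median difference of -1.83. Mcm5, a subunit of the replicative helicase, read 8.43, 7.13 and 8.83 in HLC against 10.91 to 11.07 in ESC and fell by 2.87 ± 0.33 (adjusted p = 3.11e-05). Uhrf1 fell by 3.07, Fanci by 2.76, Mcm10 by 2.67, Msh6 by 2.61 and Cdt1 by 2.57. Histone genes, read here as a family, fell in 17 of 32 and rose in 0, with H2ac1 3.95, H2bc1 3.92 and H2bc12 3.34 lower. Of these 32 histone genes, 12 were under the floor in both kinds. The letters CCAAT, on either strand, were in 60.7% of the 56 promoters of the DNA replication and repair list and in 37.7% of all promoters.

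Mitotic genes fell less evenly. Of 44, 22 fell and 0 rose. Mybl2, a transcription factor of dividing cells, read 7.71, 6.67 and 8.49 in HLC against 11.51 to 11.81 and fell by 4.09 ± 0.31. Top2a, Ccna2 and Ndc80 differed by -1.01, -0.92 and -0.91 and were not called. HLC 2 stood apart: the mean of the mitosis list minus its ESC mean was -2.08 in HLC 2, -0.61 in HLC 1 and -0.63 in HLC 3. Without HLC 2 the count fell from 22 to 10, and with ESC 2 and 4 alone it was 13. For DNA replication the same offset was -2.36 in HLC 2 against -1.37 and -1.31 in HLC 1 and 3, and for histones the count went from 17 to 11 without HLC 2.

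**Figure D4:**
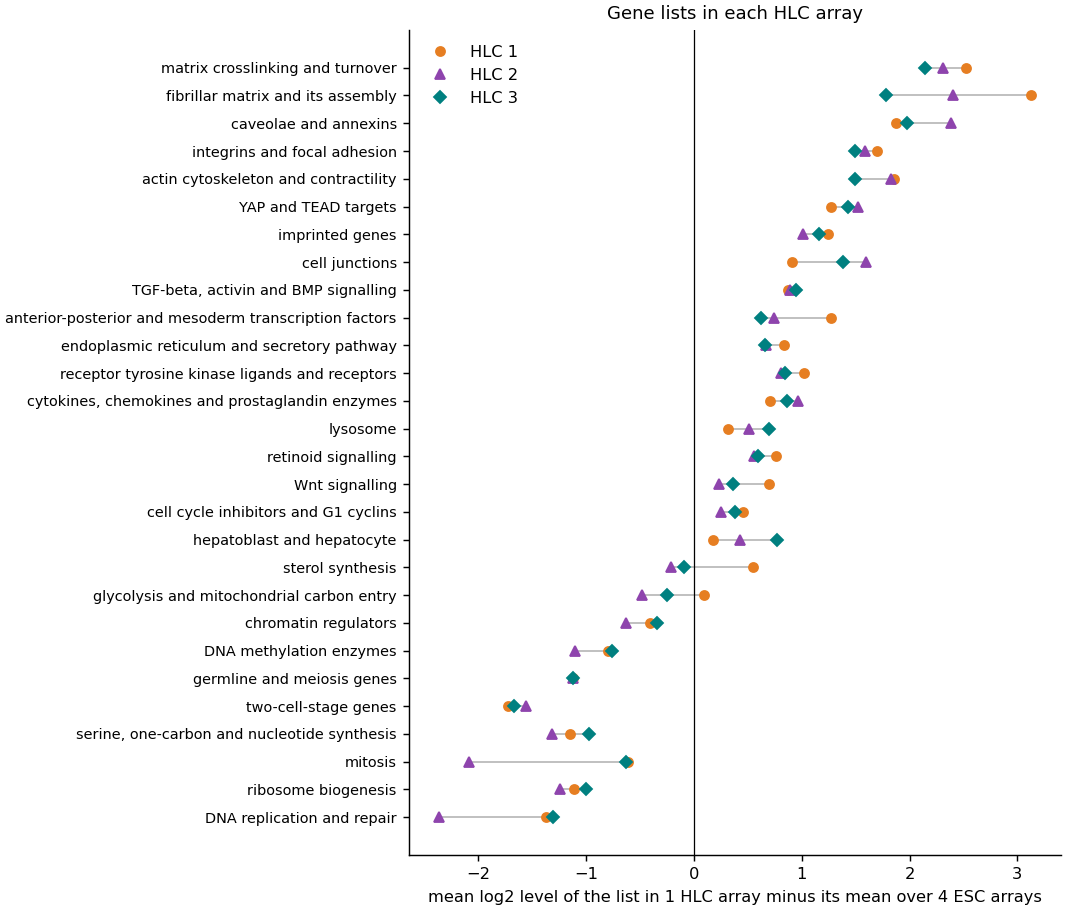
For each of the 28 lists, mean log2 level of the list in each HLC array minus its mean over the 4 ESC arrays, 1 symbol per HLC array. HLC 2 (triangles) lies apart for mitosis (-2.08) and DNA replication and repair (-2.36), HLC 1 (circles) is highest for fibrillar matrix (3.13), and sterol and glycolysis lists straddle 0.

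Entry into the cycle was not uniformly down. In the list of inhibitors and cyclins of the first gap phase, 10 of 32 rose and 6 fell. Ccnd2, a cyclin of the first gap phase, read 10.05, 10.81 and 9.09 in HLC against 4.60 to 5.60 and rose by 5.0 ± 0.34 (31.9-fold). Ccne1, which drives the short gap phase of stem cells, fell by 1.55 ± 0.23. The inhibitors Cdkn2b (2.08), Rb1 (2.01) and Cdkn1c (1.92) rose, while Cdkn1a differed by 0.56 and was not called. Without HLC 2 the lower count went from 6 to 3.

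Ribosome biogenesis genes fell as well. Of 41 ribosome biogenesis genes, 21 fell and 0 rose. Tcof1, the treacle protein of ribosomal RNA transcription, read 8.0, 7.09 and 7.78 in HLC against 9.97 to 10.16 and fell by 2.45 ± 0.20 (adjusted p = 1.63e-06). Dkc1, the enzyme that modifies ribosomal RNA and holds telomerase RNA, fell by 2.31 ± 0.32, and Terc, the telomerase RNA itself, by 4.42 ± 0.29 (6.79, 6.34 and 6.38 against 10.45 to 11.29). Small nucleolar RNAs fell in 19 of 73 and rose in 2, with 11 lower without HLC 2 and 9 lower with ESC 2 and 4 alone. Since they lie in introns of host genes, their probes can also read host precursor RNA. Cytosolic ribosomal protein genes fell in 9 of 64, led by Rpl10l (4.14 lower) and Rps4l (4.05 lower), retrogene copies that share sequence with their parents. That is 14.1%, at a mean ESC level of 9.16 to 9.44, where 26.4% of all genes from 9 to 11 fell. Mitochondrial ribosomal proteins fell in 12 of 70, and in 20 without HLC 3. The 12 of 70 are 17.1%, near the 15.9% of all genes at an ESC level from 7 to 9, where this family's mean lay (7.97 to 8.22).

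Of 34 serine, one-carbon and nucleotide synthesis genes, 17 fell and 0 rose. Cth and Cbs are the enzymes that make cysteine from homocysteine, and the others named here belong to glycine and one-carbon metabolism. Cth (cystathionine lyase) read 5.85, 4.82 and 6.05 in HLC against 8.43 to 9.26 and fell by 3.41 ± 0.28. Gldc and Amt, subunits of the glycine cleavage system, fell by 2.97 ± 0.27 and 3.04, Cbs by 2.55 and Shmt1 by 2.29. Amt, Cth and Cbs are also enzymes of adult liver. Glycolytic genes moved both ways, with 4 of 41 higher and 7 lower (4 lower without HLC 2), and sterol synthesis showed 3 higher and 3 lower of 28. Of 19 glutathione transferases, 5 fell and 2 rose, with Gstp1 3.31 and Gsta4 3.23 lower, though Gstp copies share sequence.

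The secretory route gained. Of 51 endoplasmic reticulum and secretory genes, 16 rose and 0 fell. Creb3l1, a transcription factor for collagen secretion, read 9.85, 9.43 and 8.43 in HLC against 5.08 to 6.11 and rose by 3.65 ± 0.31, and Rcn3 rose by 2.55 and Copz2 by 1.92. The general chaperones Hspa5 (0.75), Hsp90b1 (0.82) and Canx (0.59) were not called. Of 44 lysosomal genes, 13 rose and 2 fell, with Lipa, the acid lipase, higher by 3.07 ± 0.17, Ctsh by 2.69 and Smpd1 by 2.09. That count was 7 with ESC 2 and 4 alone.

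Chromatin and methylation genes were called lower more often than higher. The mean level of the chromatin list was 8.25 to 8.43 in the ESC arrays, and of all genes from 7 to 9, 15.9% fell. Of 17 DNA methylation genes, 9 fell and 3 rose. Tet1, which oxidises methylcytosine, read 7.45, 5.77 and 6.94 in HLC against 9.47 to 10.50 and fell by 3.08 ± 0.35. The de novo methyltransferase Dnmt3b fell by 2.38 ± 0.41 and its partner Dnmt3l by 1.66, while Dnmt3a differed by 0.53 and was not called. Tet3 rose by 1.46 where Tet1 and Tet2 (1.48) fell. Of 58 chromatin regulators, 15 fell and 3 rose (5 to 7 in some alternatives): Morc1, a silencer of transposons in germ cells, fell by 5.39, Epop by 3.80 and the polycomb member Phc1 by 2.55, and Hmga2, a chromatin protein of fetal cells, rose by 3.47 ± 0.24.

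Germline genes fell more often than they rose. Of 56 germline and meiosis genes, 24 fell and 2 rose, and 25 were under the floor in both kinds. Sohlh2, a transcription factor of early germ cells, read 4.23, 4.44 and 4.29 in HLC against 7.94 to 8.78 in ESC and fell by 4.15 ± 0.20. Prdm14 fell by 3.66 and Dazl by 3.32. Hormad1, a protein of the meiotic chromosome axis, fell by 3.70 ± 0.57 from ESC levels that followed the pairs, 7.50 and 7.64 in ESC 1 and 3 against 5.67 and 4.58 in ESC 2 and 4. Its HLC levels of 2.58 to 2.76 lay below all 4.

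Several meiotic genes carry the E-box letters CACGTG near their start, a site known from the repressors that keep germline genes silent in somatic cells. The letters were in 19 of 62 promoters of this list, 30.6%, and in 8.10% of all 20520 promoters, searched on both strands. They were in 12.1% of promoters of all genes that fell and 8.13% of those that rose. Of the 47 list genes with a promoter, 16 held the letters, of which Ddx4, Dnmt3l, Hormad1, Mael, Stag3, Stk31, Syce2 and Sycp1 fell, Taf9b rose and 7 were not called. Of all 47, 22 were called either way, and whether genes with the letters fell more often than the rest was not tested. Of the 8 that fell, 3 are shown, each with the 250 bases before the start in the direction of the gene and CACGTG in capitals.
Hormad1 (chr3:95559427-95559676, plus strand): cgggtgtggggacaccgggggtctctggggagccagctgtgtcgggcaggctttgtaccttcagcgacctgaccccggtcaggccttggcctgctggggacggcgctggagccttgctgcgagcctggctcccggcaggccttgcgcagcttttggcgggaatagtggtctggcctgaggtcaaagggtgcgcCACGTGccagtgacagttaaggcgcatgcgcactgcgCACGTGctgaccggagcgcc
Ddx4 (chr13:112652311-112652560, minus strand): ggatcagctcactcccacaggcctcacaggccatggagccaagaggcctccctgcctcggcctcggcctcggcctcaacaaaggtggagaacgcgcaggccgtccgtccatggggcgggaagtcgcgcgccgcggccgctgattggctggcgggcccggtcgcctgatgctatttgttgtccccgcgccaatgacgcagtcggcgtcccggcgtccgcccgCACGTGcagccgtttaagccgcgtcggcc
Mael (chr1:166238745-166238994, minus strand): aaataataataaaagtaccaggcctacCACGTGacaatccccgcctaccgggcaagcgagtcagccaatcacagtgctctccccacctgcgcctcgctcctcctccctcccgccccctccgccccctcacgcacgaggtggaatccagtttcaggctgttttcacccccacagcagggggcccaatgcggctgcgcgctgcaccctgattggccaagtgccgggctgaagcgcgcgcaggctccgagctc
Mael, which acts in transposon silencing, read 3.67, 3.45 and 3.68 in HLC against 4.99 to 5.89 in ESC and fell by 2.03 ± 0.21. Ddx4, the germ cell helicase also called Vasa, fell by 1.88 from an ESC mean of 5.55. Mael and Ddx4 thus lay near the floor of 5.5 in ESC. Promoters of switched-off genes as a whole held few CpG dinucleotides, with a median of 7.5 over 134 promoters of 300 bases, against 15 for switched-on genes and 13 for all.

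Genes linked to the 2-cell-stage embryo fell in 11 of 27 and rose in 0. The list holds both genes that few stem cells express at a time, such as Zscan4, and their activators Dppa2 and Dppa4, which stem cells express broadly. Zscan4e read 2.50, 2.64 and 2.46 in HLC against 8.29 to 8.91 in ESC and fell by 6.07 ± 0.22 (adjusted p = 3.98e-09). Calcoco2 fell by 6.07, Dppa2 by 5.84, Zscan4b by 4.65 and Dppa4 by 3.15. The Zscan4 copies share sequence, so the split between them is uncertain. The numbered zinc finger family fell in 43 of 364 and rose in 17, and 13 of those that fell were switched off. Called either way were 16.5% of the family, near the 16.0% of all genes tested. A run of neighbours on chromosome 4, Zfp982, Zfp985, Zfp979, Zfp534 and Zfp984, fell by between 2.29 and 4.74, again with shared sequence. Pramel genes fell in 5 of 29.

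Runs of at least 4 consecutive measured genes called the same way were counted over 21994 genes placed in RefSeq order. There were 6 upward runs holding 25 genes and 14 downward runs holding 62. The longest upward run held 5 genes on chromosome 19: Acta2 (6.32), Fas (3.53 ± 0.26), Ch25h (1.72), Lipa (3.07) and Ifit2 (1.05). Others were Col1a2, Casd1, Sgce and Peg10 on chromosome 6, Tes, Cav2, Cav1 and Met on the same chromosome, and Irs2, Col4a1, Col4a2 and Rab20 on chromosome 8. Downward runs included Cd3g, Cd3d, Cd3e and Mpzl2 on chromosome 9 and Rcc1, Snhg3, Snora73b and Snora73a on chromosome 4. Overlapping neighbours and host transcripts can be read by the same probes, so a run is not a count of independent events.

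Imprinted genes, expressed from 1 parental copy and rich in fetal growth regulators, rose in 21 of 45 and fell in 0, with a median difference of 0.90. Peg3 read 12.53, 12.19 and 12.13 in HLC against 7.90 to 8.27 in ESC and rose by 4.20 ± 0.19 (18.4-fold, adjusted p = 1.5e-08). Zim1, its neighbour, rose by 4.32, Igf2 by 4.64, Dcn by 3.26, Peg10 by 3.19 and Sgce by 2.64. Phlda2 and Copg2 differed by -0.63 and -0.46 and were not called. The arrays do not tell the parental copies apart.

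The imprinted stretch from Dlk1 to Dio3 on chromosome 12 was followed gene by gene. It holds 54 measured genes, 43 of them microRNA genes, of which 10 rose and 0 fell, and 50 lay above 0 with a median difference of 0.65. Dlk1, a paternally expressed membrane protein of hepatoblasts, read 8.62, 7.03 and 7.13 in HLC against 4.85 to 5.39 (difference 2.48 ± 0.32). Rian, a noncoding RNA of the maternal copy, read 10.52, 9.85 and 9.79 against 8.55 to 8.83 (1.36 ± 0.22). Meg3, the first maternal RNA of the stretch, differed by 0.19 ± 0.21 and Dio3 by -0.27, both not called. The count of 10 ranged from 7 to 15 over the alternatives that keep the thresholds, and only Dlk1 rose by at least 2.

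**Figure D5:**
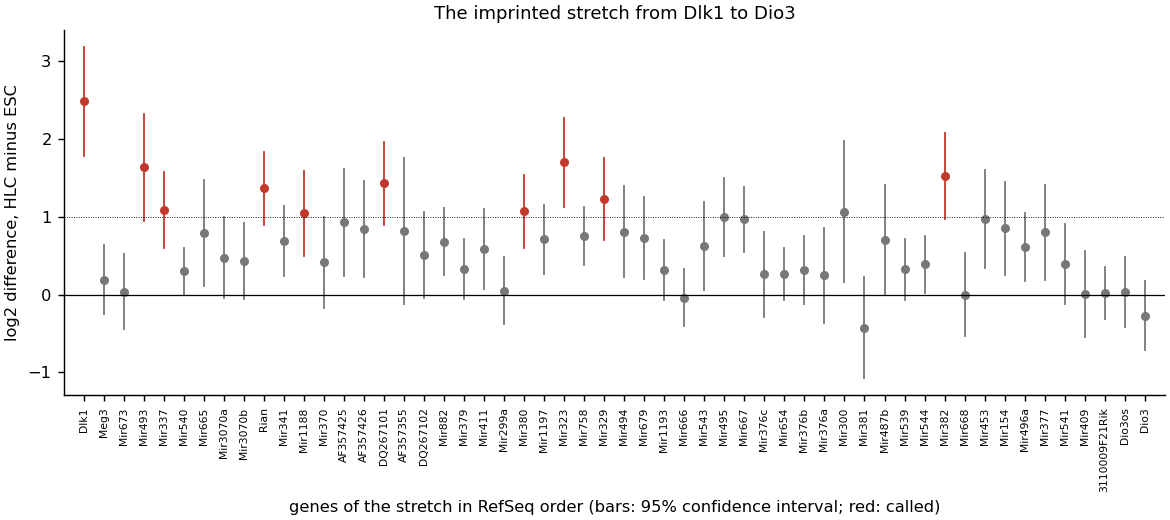
Log2 difference, HLC minus ESC, of the 54 measured genes from Dlk1 to Dio3 in RefSeq order, with 95% confidence intervals, the 10 genes that rose in red and the line of 1 dotted. Dlk1 is highest at 2.48, 50 of 54 points lie above 0, and Meg3 and Dio3 lie near it.

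Of 483 microRNA genes on the arrays, 17 rose and 12 fell, and 420 matched a mature sequence in RefSeq. The probes read precursors or host transcripts, not mature microRNAs, and most levels are under the floor: with dim genes left out, 8 rose and 6 fell. MicroRNAs pair with targets through the seed, bases 2 to 8, shown in capitals below. The first 6 lines are products of genes that fell, from the clusters known to sustain stem cell division, and the other 6 of genes that rose.
miR-290a-3p: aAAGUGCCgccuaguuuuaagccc
miR-302b-3p: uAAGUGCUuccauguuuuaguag
miR-302c-3p: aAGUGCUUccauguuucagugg
miR-18b-5p: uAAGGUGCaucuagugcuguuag
miR-19a-3p: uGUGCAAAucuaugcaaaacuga
miR-19b-3p: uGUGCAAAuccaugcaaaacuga
miR-323-3p: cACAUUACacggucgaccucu
miR-493-3p: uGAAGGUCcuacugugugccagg
miR-382-5p: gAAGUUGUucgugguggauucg
miR-329-3p: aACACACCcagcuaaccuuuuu
let-7e-5p: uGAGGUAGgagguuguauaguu
miR-181b-5p: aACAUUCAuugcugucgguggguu
The 2 miR-19 products share the seed GUGCAAA, and miR-290a-3p and miR-302b-3p share the letters AAGUGC within theirs. Mir290a read 3.57, 2.84 and 4.87 in HLC against 7.81 to 8.64 in ESC and fell by 4.55 ± 0.43 (adjusted p = 6.22e-06), and Mir18b fell by 3.68 ± 0.20 from ESC levels of 6.10 to 6.86. These were the 2 of the 6 genes above the floor in every ESC array. Mir302b fell by 1.86 from ESC levels of 2.69 to 5.30, under the floor, and was not called with ESC 1 and 3 alone. Among the rises, Mir323 (1.70), Mir493 (1.64), Mir382 (1.52) and Mir329 all lie in the stretch from Dlk1 to Dio3. Of 12 measured genes with the let-7 seed GAGGUAG, Mirlet7e rose by 1.27 ± 0.20, 0 fell and the other 11 were not called.

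Long noncoding RNAs were called less often than coding genes, in 3.74% of 1926 against 17.8% of 18964, with 26 higher and 46 lower. The noncoding genes had a median level of 4.32, under the floor, against 5.99 for coding genes. Platr10, picked out after its values were seen, fell by 4.15 ± 0.27 (3.82 to 4.73 in HLC against 8.17 to 8.69 in ESC). Receptors of smell, which should be silent in both kinds, gave 1 call among 1088 genes.

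The 3 HLC arrays were not copies of each other, and the genes that separate them differ in kind. HLC 1 lay at least 2 above the mean of the other 2 in 84 genes, HLC 2 in 25 and HLC 3 in 67. They lay as far below it in 15, 26 and 37. Where the other 2 also lay within 1 of each other, the counts were 64, 20 and 61 above and 8, 12 and 10 below. The 10 genes with the largest SD over HLC were Alb, Hamp, Ptn, Frzb, Asb12, Serpina1c, Tac2, S1pr3, Fbn2 and Ctse. Hamp (hepcidin, the liver's iron hormone) read 5.44, 5.44 and 10.54, and Serpina1c 3.46, 4.12 and 8.08, so both were high in the array that was high for Alb and for trophoblast markers. Ptn (10.79, 6.44 and 5.39), S1pr3 (9.80, 5.74 and 5.45) and Fbn2 (10.86, 7.14 and 6.50) were high in HLC 1, the array highest for fibroblast markers. Ctse was high in HLC 2 at 7.14, 10.59 and 6.11. Of these 10, Hamp, Ptn, Frzb, Asb12, Fbn2 and Ctse were called higher, but Ptn was not called once any 1 ESC array was left out, Frzb and Ctse were not called with either ESC pair alone, and Hamp was not called with ESC 2 and 4 alone.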

How the data were processed

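RNA of 4 ESC, 3 HLC and 3 AdHep samples was hybridised to Affymetrix arrays. The deposited values are log2 levels, used as the authors made them. Per the submitters' processing notes, the tools were Transcriptome Analysis Console, R 3.3.1, oligo 1.38.0 and RMA, whose roles are not stated. The build of the files is not given in the sources used here. With no detection values in the table, the floor of 5.5 was chosen here, and the number of arrays limits precision.

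Groups follow the cell type in the labels. Platform annotation gave exactly 1 symbol to 23521 clusters (23328 found in RefSeq), several to 1814 and none to 16010. For the 1082 genes with several clusters, the cluster with the highest mean over the 10 arrays stood for the gene. limma 3.58.1 in R 4.3.3 (lmFit, eBayes, 2-sided) fitted group means to all 10 arrays at once, with 7 residual degrees of freedom and a prior of 5.34, and Benjamini-Hochberg adjustment ran over 22180 genes. Nothing in the labels says that replicates came from separate cultures or animals, so a p-value here rests on the spread among the arrays, which may be technical. On simulated arrays of 22180 genes, the same fit called 98% of 100 genes given a shift of 1.5 and 100% of 100 given a shift of 3. There were 3 false calls among the genes given no shift. The simulated noise was normal, of 1 size per gene in all groups and independent between arrays. It lacked the ESC pairs and the looser HLC arrays, so these rates may not hold for the real arrays.

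Genes named are the 15 largest differences each way without overlap, the 10 switched-on and 10 switched-off genes at the highest level, up to 6 called members of a list and 3 of a family by size, the 10 largest SDs over HLC and the 5 smallest differences at 11 or more in both kinds. Clones, predicted models, small RNAs and pseudogenes were left out of the largest differences. Members of gene runs, of the stretch from Dlk1 to Dio3, of the ESC pairs and of the motif sets, microRNAs, Platr10, Serpina3n and Nrp1, and some further list members, were chosen after their values were seen. The members and lists were chosen with earlier results of these data known. The histone family was widened to current symbols after the data were seen.

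Promoter and microRNA sequences are RefSeq's, build GRCm38.p6. Motifs were counted on both strands, the E-box as CACGTG, the CCAAT box as its letters, the TEAD motif as GGAATG and the CArG box by name. The E-box and the CArG box read the same on both strands. Python 3.11.15 with pandas 2.3.3 made the counts and matplotlib 3.10.9 the plots. Alternatives covered scaling, dim genes, the choice of cluster, the variance model, array weights, the arrays fitted, thresholds, a replicate block and each array left out. Fits with ESC 1 and 3 or ESC 2 and 4 alone were chosen after seeing the data.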

Additional observations from a re-analysis of the deposited data

Results flagged for a closer look

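Among 77 values looked at over the 4 ESC arrays (49 named genes and 28 list means), 3 had an array far from the other 3. Nr0b1 read 10.99 in ESC 3 and 10.83, 10.82 and 10.83 in ESC 1, 2 and 4. Nrk read 3.40 in ESC 4 and 4.23, 4.22 and 4.15 in ESC 1 to 3, all under the floor of 5.5. Pmp22 read 5.78 in ESC 3 and 5.44, 5.41 and 5.46 in the others. Chance sets apart about 1 in 20 such groups, and each gap is small beside the difference of its gene from HLC. Groups of 3 arrays were not examined in this way.

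Clusters without a gene symbol lie outside the comparison above. Of 16010 such clusters, 793 were higher in HLC and 433 lower by the same thresholds. That is 7.66% called, against 15.4% of clusters with 1 symbol, and their median level of 4.32 lies under the floor.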

How the results depend on the processing

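With an adjusted p under 0.05 but a difference of at least 2 in place of 1, 599 genes were higher, 431 lower and 1030 called, which is the construction of a stricter threshold. All other alternatives run kept the counts of genes called, higher, lower, switched on and switched off within 1.5 times. Leaving out 1 array gave 3349 to 3719 genes called, 1849 to 1995 higher, 1447 to 1809 lower, 236 to 268 switched on and 151 to 169 switched off, with the fewest lower without HLC 2. Centring arrays on their median gave 1714 higher and 1841 lower, and cyclic loess 1971 and 1526. With ESC 1 and 3 alone, 1882 were higher (1650 of them also higher with all arrays) and 1635 lower (1386 shared), and with ESC 2 and 4 alone 1857 (1637) and 1733 (1422). No gene called one way was called the other way under the alternatives compared gene by gene, which leave out the fit of every cluster with 1 symbol. Replicate numbers are shared by HLC and ESC, but the deviations of same-numbered arrays had correlations of 0.028, -0.021 and 0.109, which gave no clear sign of pairing. With 3 HLC and 4 ESC arrays this check cannot exclude pairing. With the replicate number as a block, 3518 genes were called, 1866 higher and 1652 lower, with 246 switched on and 153 off. Of 9437 values of 528 named genes under alternatives that keep the thresholds, 9163 kept direction and call, 258 lost the call, 16 gained it and 0 turned. Of 3564 counts for lists and families, 208 moved by more than 1.5 times, most of them counts of a few genes. Examples among counts of 5 or more, with others given beside their lists, were mitosis lower (22, 10 without HLC 2), histones lower (17, 11 without HLC 2), lysosome higher (13, 7 with ESC 2 and 4) and microRNA higher (17, 8 without dim genes). The cause of these changes was not tested.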

Other observations

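The promoters of switched-off genes differed in make-up from those of the genes that fell as a whole. At least 15 CpG were present in 29.9% of the 134 promoters of switched-off genes, in 59.1% of the 1546 promoters of all genes that fell and in 47.1% of all 20520. For switched-on genes the share was 50.7%, and for all genes that rose 61.2%. The ETS letters CCGGAAG, on either strand, were in 15.3% of promoters of genes that fell, 8.96% of those of genes that rose and 11.4% of all. These shares are descriptions and were not tested.

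Solute carriers, the membrane transporters of small molecules, moved both ways, with 37 of 374 higher and 31 lower, near the shares over all genes (8.61% and 7.35%). Slc25a24, a mitochondrial carrier of ATP, rose by 4.37 ± 0.25 and the zinc carrier Slc39a8 by 3.52, while the peptide carrier Slc15a1 fell by 4.00 and the arginine and lysine carrier Slc7a3 by 3.57. DEAD and DEAH helicases fell in 10 of 50 and rose in 1, and centromere proteins fell in 7 of 19 and rose in 0. Subunits of mitochondrial complex I and of ATP synthase gave 1 lower of 33 and 0 of 17.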
